A study of Mus musculus with 12 samples.

Results

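Regulatory T cells (Tregs) that lacked Lag3 were compared with wild-type (Wt) Tregs, both taken from non-draining lymph nodes (labelled NDL) of mice in a model of autoimmune diabetes. The comparison used 6 of the 12 libraries of the series, 3 Lag3-deficient and 3 Wt, found by the genotype and tissue in the column names of the deposited table of gene values. The other 6 libraries hold the same 2 genotypes of Tregs from pancreatic islets, 3 of each, and enter here only through the shared estimate of spread and a test of the difference between tissues. The labels give the genotype as Lag3 or Wt, and the series' design text calls the first deficient in Lag3. The mouse strain, age and sex, the Lag3 allele, any Cre driver, the sort gates and any pooling of animals are not given in the labels. No source says that the 3 libraries of a genotype came from different animals, so p-values measure the spread between these libraries, which may be technical.

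Tregs are CD4 T cells that depend on the transcription factor Foxp3 and hold other lymphocytes in check. Lag3 is an inhibitory receptor on activated T cells and Tregs, related to CD4 and, like CD4, a receptor for MHC class II molecules on antigen-presenting cells. Lymph nodes that do not drain the attacked organ hold mostly resting Tregs, which recirculate through receptors such as Ccr7 and depend on interleukin-2 (IL-2). The title of the series places an effect of Lag3 on Treg proliferation and function, and the lymph node libraries ask whether the Treg transcriptome differs away from the islets.

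Each gene's level is given in CPM (counts scaled to the same total in each library), computed from deposited values that are themselves rescaled counts, with 3 values per genotype in the order of libraries 1a, 1b and 2. The column headers repeat the number 1, and 1a and 1b stand for its first and second occurrence. Totals were 15279167 to 15370098 rescaled counts, so that the sequencing depth of a library is unknown and no counting interval is given. Genes above 0 numbered 11476 to 15435 per library. Of the whole numbers 1 to 120, 33 never occurred in Wt library 2 and 11 in Lag3-deficient 1b, against 0 in the other 4. Among genes with a mean log2 level of at least 5, 31 were under 1 CPM in Lag3-deficient 1b. In Wt 1b this number was 10, in Wt 2 it was 4, and in the remaining libraries 0. The ribosomal RNA gene Rn45s held 1.42% of the signal in Lag3-deficient library 1b and 1.26% in Wt library 1b, against 0.149 to 0.36% in the other 4. Over the 10868 genes tested, Spearman's rho between libraries was 0.718 to 0.882 within the Lag3-deficient group, 0.723 to 0.801 within Wt and 0.692 to 0.905 between the genotypes. The most alike pair of the 6 libraries, at 0.905, was Lag3-deficient 1a with Wt 1a. Lag3-deficient 1b stood furthest from the rest, with 0.692 to 0.737 to each of the other 5, and had the lowest limma quality weight of the 6, 0.438, against 0.705 to 2.12.

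**Figure D1:**
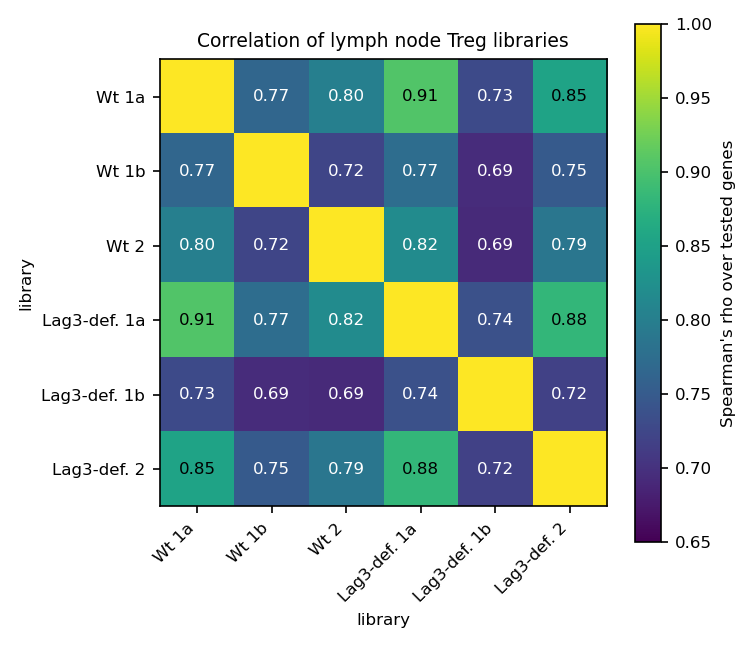
Spearman's rho between the 6 lymph node libraries (rows and columns), over the tested genes, as a colour and a printed value. Libraries did not group by genotype: the highest value, 0.91, joins Lag3-deficient 1a and Wt 1a, and the row of Lag3-deficient 1b holds the lowest, 0.69.

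The libraries carried the genes of Tregs. Foxp3 measured 624, 438 and 654 CPM in the Wt libraries and 585, 311 and 604 CPM in the Lag3-deficient ones, and the coreceptor gene Cd4 245, 294 and 232 against 172, 255 and 221 CPM. Cd8a, the coreceptor of the other T cell lineage, was at 0.307, 0.217 and 0.121 CPM in Wt and 2.16, 0.150 and 12.05 CPM in Lag3-deficient libraries. Red cell markers summed to 0.184 CPM at most in any library. Markers of other cell types were summed per library. The B cell list (11 of its 14 genes in the table) summed to 29.1 to 110.2 CPM in Wt and 22.97 to 105.3 CPM in Lag3-deficient libraries, and Pax5 was listed at 0 in all 6. The myeloid and dendritic cell list summed to 158 to 247 CPM against 216 to 359 CPM, with Flt3 listed at 0 in all 6 libraries. Nearly all of that sum was Cst3, at 202, 158 and 246 CPM in Wt and 212, 358 and 258 CPM in Lag3-deficient libraries. The stroma and endothelium list summed to 7.46 to 114 CPM against 26.4 to 57.8 CPM, with Ccl21a listed at 0 in all 6. Most of it was Pecam1, at 56.0, 5.87 and 113 CPM in Wt and 56.4, 25.2 and 52.5 CPM in Lag3-deficient libraries. A listed 0 does not show that a gene was not expressed: Eno1, a glycolytic enzyme gene that every cell uses, was at 132, 0 and 0 rescaled counts in Wt and 940, 0 and 344 in Lag3-deficient libraries. In bulk RNA, fewer cells of a type and less RNA per cell cannot be told apart.

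Lag3 itself (chromosome 6, 124904361 to 124911705, minus strand, GRCm38) was barely detected in lymph node Tregs of either genotype. Wt libraries 1a, 1b and 2 held 2, 6 and 5 rescaled counts, and Lag3-deficient libraries 1, 3 and 0. The groups overlapped, and the log2 difference, Lag3-deficient minus Wt, was -0.24 ± 0.62 with a 95% interval of -1.54 to 1.06. In these lymph node libraries the targeted gene is therefore too low to check the genotype labels. In the islet libraries it was at 40, 120 and 48 rescaled counts in Wt and 1, 0 and 0 in Lag3-deficient cells. The position of the missing sequence within the gene is not given in the sources used here.

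No gene differed between the genotypes in lymph node Tregs at an adjusted p under 0.05: limma with Benjamini-Hochberg adjustment called 0 of 10868 tested genes (0%), and the lowest adjusted p was 1. An unadjusted p under 0.05 was found for 296 genes (2.72%), 155 of them higher in Lag3-deficient Tregs (1.43%) and 141 lower (1.3%), where 543 of 10868 would fall under that threshold with no difference at all. In 818 genes (7.53%) the 3 libraries of one genotype all lay above the 3 of the other, 423 of them (3.89%) higher and 395 (3.63%) lower in Lag3-deficient libraries. With 3 against 3 libraries in random order, a share of 0.1 would separate in this way. The log2 difference over all tested genes had a median of -0.02 and quartiles of -0.53 and 0.60, and it was above 0 in 48.9%. With no adjusted call, every gene described from here on is given by its values, its log2 difference on the log2(CPM + 1) scale ± SE (n = 3 libraries per genotype) and, for those nearest to a difference, the 95% limma interval. An interval that leaves out 0 marks an unadjusted p under 0.05. The adjusted limma p in lymph nodes was 1 for each of them.

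The precision of the genotype difference depended on the level of the gene. For the 1290 genes with a mean log2 level over 7, the median residual SD was 0.56 log2 units, and the 95% interval of the genotype difference reached a median of 1.01 to either side, or 2.02-fold. The 2846 genes between 5 and 7 had a median half-width of 1.66 (3.15-fold), and the 4325 genes between 2 and 5 one of 2.82 (7.07-fold). These intervals are not adjusted for the number of genes tested. The half-widths are therefore not the smallest differences that the adjusted test could have called.

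**Figure D2:**
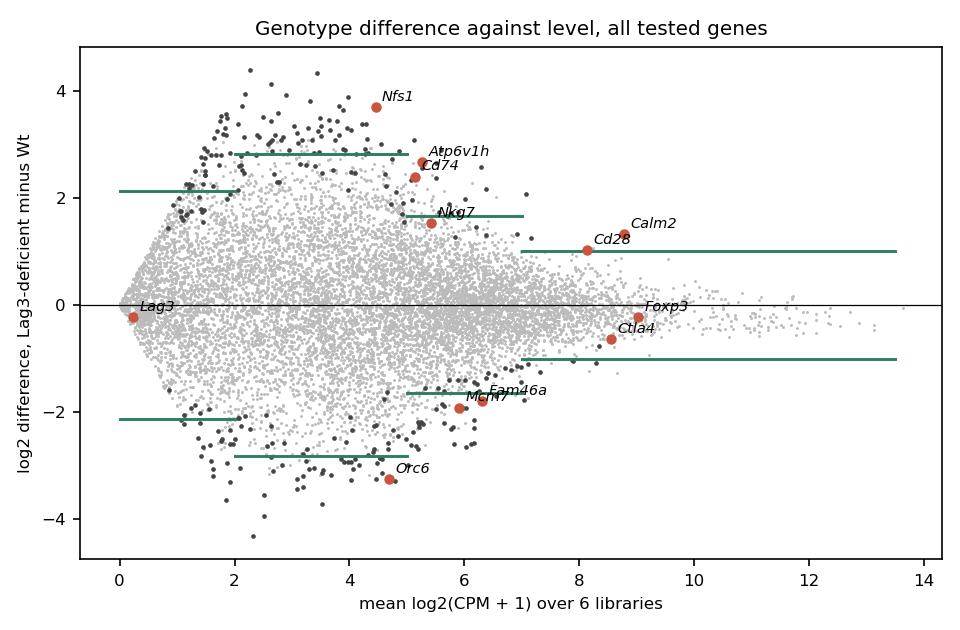
Log2 difference, Lag3-deficient minus Wt, against mean log2(CPM + 1) over the 6 lymph node libraries, 1 point per tested gene (grey), with genes at an unadjusted limma p under 0.05 in black and genes named in the text in red. Green lines mark the median half-width of the 95% interval in each range of level, 1.01 for genes over 7 and 2.82 for genes between 2 and 5.

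The genes that define the Treg lineage showed no difference larger than the spread between libraries. Il2ra, the high-affinity IL-2 receptor chain (CD25), measured 429.9, 498 and 516 CPM in Wt and 295, 824 and 440.0 CPM in Lag3-deficient libraries, which overlapped fully, with a log2 difference of -0.01 ± 0.44 (95% interval -0.94 to 0.91). The difference of Foxp3 was -0.23 ± 0.40 (95% interval -1.07 to 0.60), and Lag3-deficient 1b was the lowest of its 6 libraries. Ikzf2, encoding Helios, a factor of thymus-derived Tregs, was at 547, 784 and 627 against 419, 508 and 592 CPM (-0.36 ± 0.33). Its relative Ikzf4, encoding the Foxp3 partner Eos, varied more within a genotype than between them, at 80.8, 27.9 and 21.3 against 64.3, 15.6 and 22.8 CPM (-0.34 ± 1.05). Tnfrsf18, encoding the costimulatory receptor GITR, was at 474, 530.0 and 592 against 538, 360.1 and 379 CPM (-0.34 ± 0.36). The interval of each of these 5 genes holds 0.

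Ctla4, the inhibitory receptor through which Tregs remove CD80 and CD86 from antigen-presenting cells, came nearest to a difference in this group. It measured 404, 544 and 469.9 CPM in Wt and 271, 242 and 408 CPM in Lag3-deficient libraries, where only Lag3-deficient 2 reached the Wt range. Its log2 difference was -0.65 ± 0.34 (95% interval -1.35 to 0.06), and -0.34 with the 1b columns left out. Of the 20 tested genes of the Treg identity list, 3 had a positive difference, 0 had an unadjusted p under 0.05 and 1 had groups that did not overlap (Capg, 118, 122 and 91.1 against 136, 216 and 187 CPM). The median of the list was -0.22, beside -0.02 over all tested genes. It kept its sign over the 19 alternative settings and fits tried, from -0.30 to -0.09. Socs2, a feedback inhibitor induced through STAT5, was at 150.5, 198 and 112 against 65.9, 136 and 68.9 CPM (-0.80 ± 0.64, 95% interval -2.14 to 0.53).

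**Figure D3:**
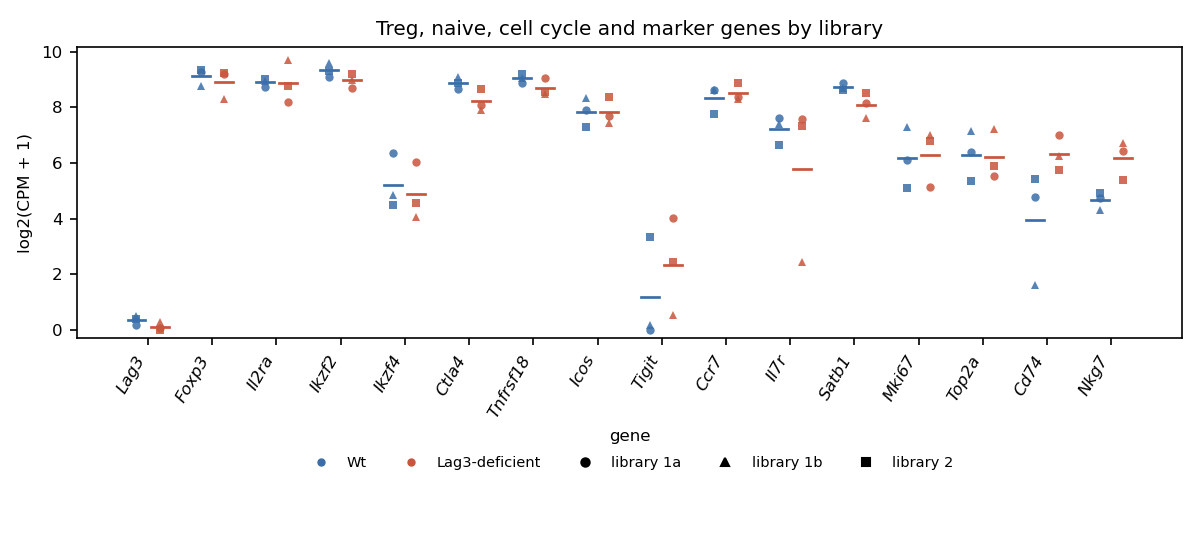
Level of 16 genes as log2(CPM + 1) in each lymph node library, with Wt in blue and Lag3-deficient in red. Circles are library 1a, triangles 1b and squares 2, and a bar marks the mean of 3. The red and blue points of Foxp3, Il2ra and Icos overlap, and Lag3 lies near 0 in all 6 libraries.

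Genes of effector Tregs, which have met antigen and express suppressive and tissue-homing molecules, were spread on both sides of 0. Of 30 tested members, 17 had a positive difference, with a median of 0.14, and 0 had an unadjusted p under 0.05. Icos, a costimulatory receptor, was at 239.6, 323 and 157 against 205, 173 and 332 CPM (-0.02 ± 0.49). Klrg1, a receptor of terminally differentiated Tregs, was at 0, 14.4 and 2.85 against 9.21, 14.7 and 18.2 CPM (1.90 ± 1.36, 95% interval -0.95 to 4.75). The chemokine receptor gene Ccr8 showed how uneven such weakly expressed genes were, with 28.6, 0 and 22.3 CPM in Lag3-deficient libraries 1a, 1b and 2 and 0.553, 0 and 0 CPM in Wt (2.93 ± 1.63, 95% interval -0.48 to 6.34). Nfil3, encoding a basic leucine zipper factor, was at 3.50, 0.217 and 0.121 against 0.911, 24.9 and 11.4 CPM (2.22 ± 1.14, 95% interval -0.17 to 4.60). Il10, the suppressive cytokine, was listed at 0 in 4 of the 6 libraries and at 7.80 CPM in Wt 1a.

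Genes of inhibitory receptors lay evenly on both sides of 0. The list had 16 tested members, 8 of them with a positive difference, and a median of -0.01. The receptor Pdcd1 (PD-1) measured 22.6, 95.1 and 46.04 CPM in Wt and 19.2, 35.2 and 25.4 CPM in Lag3-deficient libraries (-0.82 ± 0.65, 95% interval -2.18 to 0.54). For Tigit, a receptor for CD155, the levels were 0, 0.145 and 9.09 and 15.2, 0.449 and 4.42 CPM (1.15 ± 1.28), and the groups overlapped.

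Genes of naive and recirculating T cells had a negative median, -0.29 over 15 tested members, of which 5 had a positive difference and 0 an unadjusted p under 0.05. It stayed negative over the 19 alternatives, from -0.39 to -0.16. Satb1, a chromatin organiser needed for Treg development, was lower in all 3 Lag3-deficient libraries, at 284, 195 and 362 CPM against 466, 413 and 397 CPM in Wt (-0.64 ± 0.42, 95% interval -1.52 to 0.24), and was the 1 member whose groups did not overlap. Tcf7, encoding the factor TCF-1, was at 185, 165 and 160.1 against 169.5, 51.7 and 77.5 CPM (-0.94 ± 0.67), and S1pr1, the receptor for exit from lymph nodes, at 296, 249 and 391 against 258, 155 and 203 CPM (-0.61 ± 0.47). Ccr7, the chemokine receptor for entry into lymph nodes, measured 391, 394 and 215 against 331, 315 and 471 CPM (0.19 ± 0.42).

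Other genes of this group varied from library to library. Lef1, a partner of TCF-1, was at 615, 559 and 604 against 313, 733 and 495 CPM (-0.29 ± 0.45), and Klf2, a factor that drives S1pr1, at 337, 474 and 398 against 216, 511 and 467 CPM (-0.10 ± 0.45). Il7r, the IL-7 receptor, had a difference of -1.45 ± 0.94 that rested on Lag3-deficient 1b: its Lag3-deficient levels were 190.1, 4.42 and 159 CPM, beside 195, 171 and 99.5 CPM in Wt. Without the 1b columns the difference of Il7r was 0.36.

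The IL-2 and STAT5 genes, 23 of them tested, had a median of -0.05 with 9 positive differences and 0 unadjusted calls. Cish, a STAT5 target that dampens IL-2 and T cell receptor (TCR) signals, measured 287, 404 and 319 CPM in Wt and 164, 865 and 387 CPM in Lag3-deficient libraries, with Lag3-deficient 1b the highest and Lag3-deficient 1a the lowest of the 6 (0.19 ± 0.54). The survival gene Bcl2 was at 207, 189 and 142 against 143, 173 and 283 CPM (0.11 ± 0.61). Il4ra, encoding the IL-4 receptor chain, was at 56.4, 130.3 and 98.7 against 48.7, 32.03 and 58.5 CPM (-0.98 ± 0.67, 95% interval -2.37 to 0.41).

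TCR early response genes, which report recent antigen contact, had a median of 0.06 over 27 tested members, 16 of them positive, and 0 unadjusted calls. Nr4a1, encoding Nur77, was at 21.9, 22.3 and 6.91 against 17.4, 16.7 and 25.1 CPM (0.33 ± 0.75), and Cd69, an early activation and retention receptor, at 281, 116 and 334 against 243, 187 and 253 CPM (0.02 ± 0.45). The phosphatase genes Dusp1 (25.1, 17.6 and 10.7 against 32.1, 38.99 and 25.9 CPM, 0.88 ± 0.55) and Dusp4 (4.73, 10.8 and 1.51 against 12.7, 11.5 and 19.8 CPM, 1.46 ± 1.09) were higher in each of the 3 Lag3-deficient libraries than in any Wt library. Among the 27, 4 (14.8%) had groups that did not overlap, beside 7.53% of all tested genes.

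Genes of TCR signalling (27 tested, 13 positive) had a median of -0.01. Lck, the kinase that starts the TCR signal, measured 991, 816 and 870.5 CPM in Wt and 1172, 1047 and 1426 CPM in Lag3-deficient libraries without overlap (0.44 ± 0.41, 95% interval -0.41 to 1.28). The CD3 chain genes lay on both sides of 0. Cd3d (0.14 ± 0.34) and Cd3e (0.12 ± 0.58) had positive differences, and Cd247 and Cd3g negative ones, Cd247 at 487, 493 and 429 against 366, 266 and 416 CPM (-0.45 ± 0.37) and Cd3g at 1747, 1598 and 1597 against 1310.1, 1585 and 1397 CPM (-0.21 ± 0.31). Nfatc2, encoding a calcium-dependent factor downstream of the TCR, was at 26.5, 1.01 and 0.848 against 30.97, 51.5 and 44.03 CPM (3.18 ± 1.22, 95% interval 0.62 to 5.73), and Wt 1a lay nearer to the Lag3-deficient libraries than to Wt 1b and 2.

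Cycling genes, which bear on the proliferation named in the series' title, gave no common direction in lymph node Tregs. Mki67, present in cells in any phase of the cycle, measured 68, 156 and 33.3 CPM in Wt and 33.8, 127 and 109.8 CPM in Lag3-deficient libraries. The groups overlapped almost completely, with a log2 difference of 0.14 ± 0.67 and a 95% interval of -1.27 to 1.55. Top2a, the topoisomerase that untangles sister chromatids, gave 82.4, 140.0 and 39.9 against 45.9, 149 and 57.97 CPM and a difference of -0.07 ± 0.54 (95% interval -1.20 to 1.06). Of 30 tested mitosis genes 19 had a positive difference, with a median of 0.22 and a range of -2.02 to 3.08. An unadjusted p under 0.05 was found for 2 of the 30 (6.67%), beside 2.72% of all tested genes. They were the kinetochore gene Ndc80 (12.2, 17.9 and 0.666 against 23.4, 144 and 42.01 CPM, 2.84 ± 1.00, 95% interval 0.76 to 4.93) and the spindle assembly gene Tpx2 (1.04, 10.2 and 0.848 against 3.64, 155 and 34.4 CPM, 3.08 ± 1.35, 95% interval 0.25 to 5.91), both highest in Lag3-deficient 1b. Without that library Tpx2 had a difference of 1.88, and without Wt library 2 Ndc80 had one of 1.76. Kif20a, a kinesin of cytokinesis, was also highest in Lag3-deficient 1b, at 3.81, 0.362 and 0.121 against 4.75, 20.95 and 19.8 CPM (2.83 ± 1.35). The median of the mitosis list was -0.13 without Wt library 2.

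DNA replication genes, 42 tested, had 23 positive differences and a median of 0.17, and 3 of them (7.14%, beside 2.72% of all tested genes) had an unadjusted p under 0.05, 1 higher and 2 lower. Mcm7, a subunit of the replicative helicase, was lower in all 3 Lag3-deficient libraries (87.8, 108 and 164 against 31.9, 14.3 and 57.5 CPM, -1.92 ± 0.66, 95% interval -3.29 to -0.55). Another subunit, Mcm5, was at 33.4, 0.362 and 7.88 against 39.9, 41.2 and 19.9 CPM (2.15 ± 0.99, 95% interval 0.07 to 4.22). The origin recognition gene Orc6 was at 54.7, 55.1 and 163 against 38.6, 0.150 and 11.8 CPM (-3.26 ± 0.98, 95% interval -5.31 to -1.21). A further helicase subunit, Mcm6, measured 112, 52.2 and 99.8 against 102, 113 and 102 CPM (0.33 ± 0.57). Single libraries moved these values: Mcm5 had a difference of 0.92 without Wt 1b and Orc6 one of -1.83 without Lag3-deficient 1b.

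Among well-expressed genes (a mean log2 level of at least 5, or 31 CPM, 4136 genes), the genotypes did not overlap in 284 (6.87%), and 100 were higher (2.42%) and 184 lower (4.45%) in Lag3-deficient libraries. The 10 of each with the smallest p were picked for that reason, and their values are a description. The smallest p of all tested genes belonged to Atp6v1h, a subunit of the proton pump that acidifies lysosomes (chromosome 1, 5070018 to 5162529, plus strand, GRCm38). It measured 28.3, 7.10 and 13.99 CPM in Wt and 64.8, 88.8 and 154 CPM in Lag3-deficient libraries, with a log2 difference of 2.67 ± 0.66 (95% interval 1.29 to 4.05). Cd74, the invariant chain that guides MHC class II molecules, was at 26.4, 2.10 and 42.2 against 128, 76.2 and 52.5 CPM (2.39 ± 0.76, 95% interval 0.80 to 3.99), with Wt 1b far below the other 5. Calm2, one of the calmodulin genes, was at 635, 159 and 213 against 767, 677 and 649 CPM (1.32 ± 0.47), so that Wt 1a lay close to the Lag3-deficient libraries and Wt 1b and 2 did not.

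Cd28, the costimulatory receptor needed for Treg development and upkeep (chromosome 1, 60716800 to 60773359, plus strand, GRCm38), measured 267, 136 and 206 CPM in Wt and 312, 499 and 409.6 CPM in Lag3-deficient libraries (1.03 ± 0.42, 95% interval 0.14 to 1.91). Its neighbour on the chromosome, Ctla4, which competes with Cd28 for the same ligands, lay at 60887000 to 60915832 and had the opposite sign (-0.65 ± 0.34). Bsg, the surface glycoprotein basigin, was at 82.6, 9.56 and 37.3 against 138, 133 and 111 CPM (1.98 ± 0.77), and Dld, a subunit shared by mitochondrial dehydrogenase complexes, at 40.8, 63.6 and 102 against 144, 466 and 302 CPM (2.07 ± 0.74). The other 4 were Tsnax (2.65 ± 0.93), Dnajc1 (1.88 ± 0.66), Ppp1r7 (1.96 ± 0.78) and Slc35b3 (1.25 ± 0.53).

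Of the genes lower in Lag3-deficient libraries the smallest p belonged to Fam46a, a non-canonical poly(A) polymerase now annotated as Tent5a (chromosome 9, 85320439 to 85327348, minus strand, GRCm38). It was at 137, 126 and 183 CPM in Wt and 52.7, 36.97 and 37.2 CPM in Lag3-deficient libraries, a clear gap with little spread inside either genotype (-1.79 ± 0.50, 95% interval -2.83 to -0.75). L3mbtl2, a Polycomb-related chromatin protein, was at 63.1, 112 and 69.97 against 19.5, 14.4 and 15.1 CPM (-2.22 ± 0.83, 95% interval -3.96 to -0.49), with more spread in Wt. The ubiquitin ligase gene Wwp2 was at 63.3, 205 and 66.2 against 34.6, 17.4 and 26.1 CPM (-1.88 ± 0.63). In 6 of the 10 Lag3-deficient 1b was no higher than 5.54 CPM, the value of Parp9. Among these, Plekha2, a phosphoinositide-binding adaptor, was at 90.3, 3.07 and 67.5 CPM beside 148, 244 and 148 CPM in Wt (-2.58 ± 0.83), and Rnf31, the catalytic subunit of the linear ubiquitin ligase complex, at 38.8, 3.82 and 28.6 CPM beside 43.7, 111 and 107 CPM (-2.19 ± 0.87). The remaining genes, beside Mcm7, were Txndc17 (-2.31 ± 0.77), Snx18 (-2.69 ± 1.00), the cap methyltransferase gene Rnmt (-2.63 ± 0.98) and Parp9 (-1.95 ± 0.75).

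**Figure D4:**
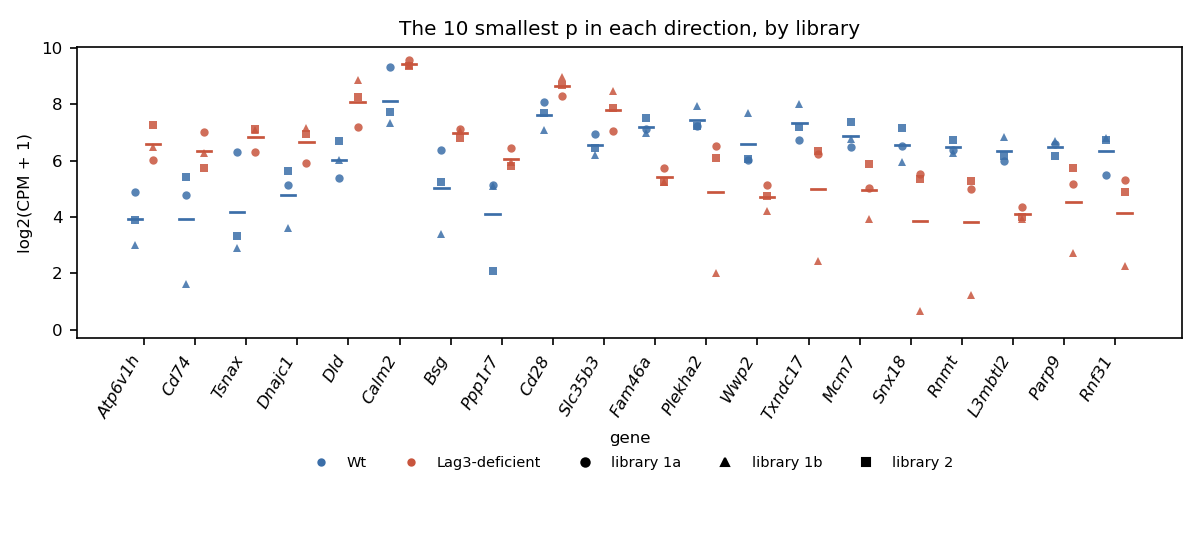
Level as log2(CPM + 1) in each lymph node library of the 10 well-expressed genes with the smallest p in each direction, Wt in blue and Lag3-deficient in red. Circles are library 1a, triangles 1b and squares 2, and a bar marks the mean of 3. In the 10 genes on the right the lowest point is the red triangle, Lag3-deficient 1b, and in 8 of the 10 on the left it is the blue triangle, Wt 1b.

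The 2 libraries called 1b held the lowest values in many of these genes. Among the 10 lower genes, Lag3-deficient 1b was the lowest library in 10, and among the 10 higher genes Wt 1b was the lowest in 8. Over all 184 well-expressed genes that were lower without overlap, Lag3-deficient 1b was the lowest of its genotype in 124 (67.4%), beside 37.1% over all 4136 well-expressed genes. For the 100 higher genes, Wt 1b was the lowest Wt library in 52 (52%), beside 35.3%. With all 4 columns called 1b left out, the difference of Fam46a was -1.77, of L3mbtl2 -1.85 and of Atp6v1h 2.31. That of Cd74 was then 1.32, of Plekha2 -0.87, of Txndc17 -0.63 and of Rnf31 -0.97. With Lag3-deficient 1b alone left out, the difference of Snx18 was -1.11, of Rnmt -1.33, of Parp9 -1.03, of Plekha2 -1.15, of Txndc17 -1.03 and of Rnf31 -1.25. Without Wt 1b that of Bsg was 1.17 and of Cd74 1.24, and without Wt library 2 that of Ppp1r7 was 0.95. A term for the 1b columns and library quality weights were also among the alternatives tried. Whether these 2 libraries account for the differences was not tested.

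MHC class II genes, the ligand side of Lag3, had 14 tested members, 9 of them with a positive difference and a median of 0.25. Only Cd74 had an unadjusted p under 0.05 among the 14. The class II chain genes were weak and uneven, H2-Aa at 1.17, 23.6 and 9.88 against 16.7, 19.5 and 10.4 CPM (0.95 ± 1.06) and H2-Ab1 at 0, 0.0724 and 6.72 against 6.28, 0 and 2.14 CPM (0.49 ± 1.34). Markers of cells that express class II were set beside them: the B cell gene Cd79a was at 0, 1.01 and 0 against 11.3, 0.449 and 4.79 CPM and the myeloid gene Lyz2 at 15.7, 0 and 0 against 0, 0 and 35.6 CPM. Of 8 tested B cell markers 6 had a positive difference, with a median of 0.56, and of 6 myeloid markers 3, with a median of 0.16. Their part in the level of Cd74 was not tested.

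Markers of CD8 T and NK cells were the list with the largest median among the 26 lists with at least 5 tested members, 1.18 over 6 tested members, all 6 with a positive difference. The remaining 6 of its 12 genes were too low to test, and Gzmk was listed at 0 in all 6 libraries. Klrd1, also untested, was at 27 rescaled counts in Wt 1a and at 0 in each Lag3-deficient library. Tested members near the floor included Eomes, with means of 0.688 CPM in Wt and 3.11 CPM in Lag3-deficient libraries, and Prf1 (0.427 and 0.667 CPM). In islets the median of this list was -0.57, with 1 positive member. Nkg7, a cytotoxic granule protein (chromosome 7, 43437073 to 43438249, plus strand, GRCm38), measured 25.8, 19.1 and 29.1 CPM in Wt and 85.6, 104 and 41.5 CPM in Lag3-deficient libraries (1.53 ± 0.70, 95% interval 0.07 to 2.98). The chemokine gene Ccl5 was at 5.10, 6.38 and 1.94 against 7.91, 6.51 and 10.1 CPM (0.83 ± 0.84). The second CD8 chain, Cd8b1, was at 1.54, 0.290 and 0 against 3.55, 9.88 and 1.39 CPM (1.72 ± 0.78, 95% interval 0.10 to 3.35), and Cd8a had a difference of 1.58 ± 1.14. Summed over the list, Wt libraries held 27.9 to 35.3 CPM and Lag3-deficient libraries 65.9 to 121.5 CPM, of which Nkg7 made up the larger share. The part of such cells in other differences was not tested. The median of this list stayed positive over the 19 alternatives, from 0.15 to 1.65, and so did that of the B cell list, from 0.05 to 1.58.

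**Figure D5:**
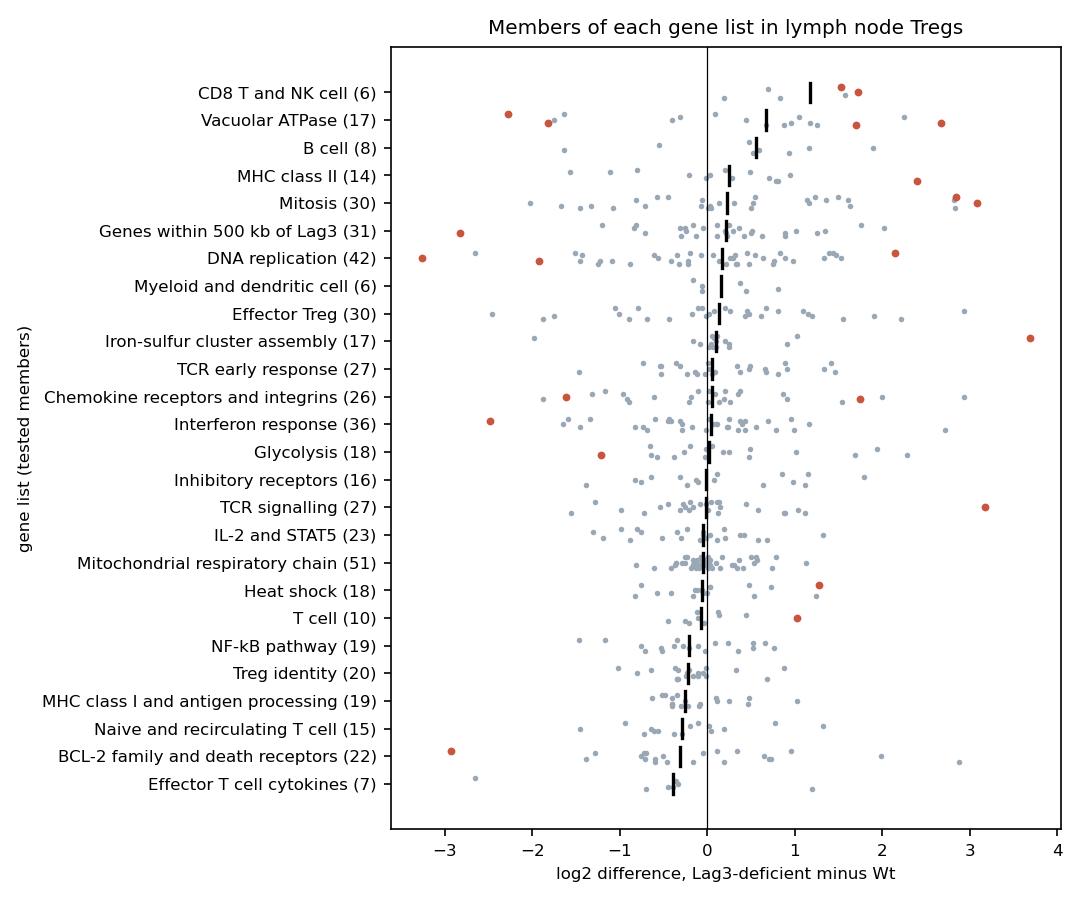
Log2 difference, Lag3-deficient minus Wt, of every tested member (points) of the 26 gene lists with at least 5 tested members, ordered by the median of the list (black bar). Red points are members with an unadjusted limma p under 0.05. The list medians run from -0.40 for effector T cell cytokines to 1.18 for CD8 T and NK cell markers.

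Antigen processing genes of the class I pathway had a median of -0.25 over 19 tested members, 6 of them positive, and 3 (15.8%) had groups that did not overlap, beside 7.53% of all tested genes. Psme1, a proteasome activator subunit, was at 754, 669 and 630.5 against 392, 479 and 620.1 CPM (-0.48 ± 0.33, 95% interval -1.18 to 0.21), and the chaperone gene Calr at 213, 213 and 168 against 165, 141 and 140.4 CPM (-0.41 ± 0.42). Tapbp, the peptide-loading factor tapasin, was at 453, 929.7 and 548 against 344, 468 and 387 CPM (-0.63 ± 0.38). Interferon response genes (36 tested, 19 positive, median 0.04) showed no common direction. Rsad2, the antiviral protein viperin, was at 13.2, 15 and 0 against 0, 0 and 0.315 CPM (-2.48 ± 0.95, 95% interval -4.45 to -0.50), and the guanylate-binding protein gene Gbp5 at 24.5, 0.869 and 2.67 against 17.7, 117 and 21.7 CPM (2.72 ± 1.33, 95% interval -0.05 to 5.50).

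Adhesion and migration genes (26 tested, 15 positive, median 0.06) included Itgal, the LFA-1 chain that binds ICAM-1, which was at 133, 83.2 and 100.2 against 264, 150.2 and 187 CPM without overlap (0.91 ± 0.44, 95% interval -0.01 to 1.82). Itgav, an integrin chain that takes part in activating TGF-beta, was at 91.03, 149 and 48.2 against 57.01, 24.7 and 15.01 CPM (-1.61 ± 0.71, 95% interval -3.10 to -0.12). Of 20 effector cytokine genes, 13 did not reach the minimum for testing.

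The medians of the respiratory chain, glycolysis and heat shock lists lay close to 0. The respiratory chain, 51 genes, had a median of -0.05 with 21 positive members and 0 unadjusted calls, and its differences ran from -0.81 to 1.12. Glycolysis (18 tested, 9 positive) had a median of 0.02, and Pgam1, phosphoglycerate mutase, was lower without overlap at 90.8, 47.8 and 88.9 CPM against 164, 129.9 and 232 CPM in Wt (-1.21 ± 0.52, 95% interval -2.31 to -0.12). Heat shock genes (18 tested, 7 positive) had a median of -0.06, with the cochaperone gene Dnajb1 at 55.6, 47.5 and 17.1 against 54.1, 142 and 88.7 CPM (1.27 ± 0.52, 95% interval 0.18 to 2.37, and 0.76 without Wt library 2). In the BCL-2 family and death receptor list (22 tested, 9 positive, median -0.31) the proapoptotic gene Bid was at 30.7, 64.3 and 37.9 against 10.6, 0.225 and 11.9 CPM (-2.93 ± 1.38, 95% interval -5.81 to -0.04), with a difference of -1.82 without Lag3-deficient 1b. Its relative Bad was at 10.9, 1.67 and 0.121 against 5.66, 80.97 and 24.7 CPM, with the opposite sign (2.87 ± 1.43, 95% interval -0.11 to 5.86).

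The vacuolar ATPase, the complex of Atp6v1h, had members on both sides of 0. Its 17 genes had 11 positive differences and a median of 0.67, and 4 of them (23.5%, beside 2.72% of all tested genes), Atp6v1h included, had an unadjusted p under 0.05, 2 in each direction. Atp6v1a, the catalytic subunit, was at 112, 78.1 and 59.7 against 66.1, 0.599 and 43.7 CPM (-2.27 ± 1.05, 95% interval -4.47 to -0.08), and its difference was -0.57 without Lag3-deficient 1b. The accessory subunit Atp6ap2 was at 161, 83.4 and 225 against 49.3, 18.1 and 72.7 CPM (-1.82 ± 0.85, 95% interval -3.59 to -0.04). Atp6v0c, a ring subunit of the membrane part, was at 0.921, 0 and 0 against 6.66, 0 and 7.63 CPM (1.70 ± 0.73, 95% interval 0.18 to 3.23). The list was drawn up with the value of Atp6v1h known. In the iron-sulfur cluster list (17 tested, 14 positive, median 0.10), likewise drawn up with an earlier result known, all members but Iba57, Nubp2, Nfu1 and Nfs1 lay between -0.16 and 0.25. The desulfurase gene Nfs1 stood apart at 61.4, 1.81 and 0.303 against 49.6, 135 and 70.5 CPM (3.69 ± 1.17, 95% interval 1.25 to 6.13), with Wt 1a inside the Lag3-deficient range.

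Genes near Lag3 on chromosome 6 were also read as a group. Of 46 protein-coding genes within 500 kb on either side, 31 could be tested. Their median was 0.21, with 19 positive, and 1 had an unadjusted p under 0.05. That gene, Pianp, which encodes a membrane ligand of PILR-alpha (124996694 to 125003096, plus strand, GRCm38), starts 85 kb beyond Lag3. It was at 118, 66 and 106 rescaled counts in the Wt libraries and was listed at 0 in all 3 Lag3-deficient libraries. In islet libraries 1a, 1b and 2 it was at 2, 80 and 54 rescaled counts in Wt and 1, 0 and 14 in Lag3-deficient cells, so there the groups overlapped. Cd4, which ends 16 kb before Lag3 on the other side, had a difference of -0.26 ± 0.44.

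Pianp was picked out after its values were seen, as were the genes that follow. Over the 23361 genes of the table, 2 (0.00856%) were at no more than 3 rescaled counts in each Lag3-deficient library and at 20 or more in each Wt library, namely Pianp and the RNA-binding protein gene Stau2. The reverse pattern held for 10 (0.0428%). Among them were Rnf121, at 2, 2 and 0 rescaled counts in Wt libraries 1a, 1b and 2 and 246, 128 and 197 in Lag3-deficient libraries, and the tRNA methyltransferase gene Alkbh8, at 3, 0 and 0 against 200, 387 and 517. Kctd20 (3, 3 and 0 against 336, 123 and 111) and the cell cycle inhibitor Cdkn1a (0, 0 and 2 against 30, 171 and 25) had it too. In islets none of these 4 kept that pattern: Rnf121 reached 351, 218 and 125 rescaled counts in Wt cells from islets, and Cdkn1a 101, 611 and 629.

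The genotype difference in lymph nodes was then set against that in islets, where the same 2 genotypes were measured in other libraries. The test of the difference between tissues called 0 of 10868 genes (0%) at an adjusted p under 0.05 and 437 (4.02%) at an unadjusted one. Within islets limma called 0 genes (0%) at an adjusted p under 0.05 and 624 (5.74%) at an unadjusted one, and 1013 (9.32%) had groups that did not overlap. Of the 10 genes named above as higher in lymph nodes, 1 had the same sign in islets, and of the 10 lower ones 4 did. The counts are a description, with no share over all genes beside them. These genes were picked for their lymph node values, which enter the differences between tissues given below. The choice therefore partly fixes those differences. Fam46a had a difference of 0.91 ± 0.50 in islets (islet minus lymph node 2.70 ± 0.70), Cd74 one of -0.81 ± 0.76 (-3.20 ± 1.08), Mcm7 one of 1.05 ± 0.66 (2.97 ± 0.93) and Slc35b3 one of -1.44 ± 0.53 (-2.69 ± 0.75). Atp6v1h kept its sign in islets, at 0.61 ± 0.66 (-2.06 ± 0.93). So did Plekha2, at -0.55 ± 0.83 (2.03 ± 1.17). Cd28 was at -0.35 ± 0.42 in islets and Nkg7 at -0.59 ± 0.70. Foxp3 had -0.25 ± 0.40 there, close to its lymph node value, and Mki67 -1.21 ± 0.67 (islet minus lymph node -1.35 ± 0.95). None of these differences between tissues had an adjusted p under 0.05.

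A few genes separated the genotypes in both tissues, again picked by their values and given as a description. In 3 genes (0.0276%) all 6 Lag3-deficient libraries lay above all 6 Wt libraries, and in 8 (0.0736%) below. How many genes would separate in this way with no genotype difference was not computed. Plcl2, a phospholipase C-like protein without catalytic activity (chromosome 17, 50509403 to 50688484, plus strand, GRCm38), was at 16.9, 14.2 and 7.94 CPM in Wt and 46.9, 47.7 and 82.9 CPM in Lag3-deficient lymph node libraries (2.11 ± 0.76, 95% interval 0.53 to 3.69, and 1.02 ± 0.76 in islets). Gimap4, a GTPase of the lymphocyte survival family, was at 356, 332 and 328 against 279, 69 and 225 CPM (-1.05 ± 0.50, 95% interval -2.09 to -0.01, and -1.13 ± 0.50 in islets), although without the 1b columns its lymph node difference was -0.40. Wipf1, a partner of the Wiskott-Aldrich syndrome protein in actin assembly, was at 288, 372 and 321 against 214, 158 and 255 CPM (-0.66 ± 0.40, 95% interval -1.49 to 0.17, and -0.93 ± 0.40 in islets) and had a lymph node difference of -0.34 without the 1b columns. Cep95 (-1.87 ± 1.03), Usp12 (-1.95 ± 1.02) and Plekha2 were others that were lower in all 6, and Slc39a8 and Sptbn4 the other 2 that were higher. Both of the latter were separated only by the scaling to CPM: in each, a Wt and a Lag3-deficient library tied in rescaled counts. Slc39a8 was at 0, 0 and 0 against 279, 6 and 7 in lymph nodes and 0, 2 and 1 against 2, 238 and 957 in islets. Sptbn4 was at 2, 3 and 5 against 31, 10 and 12 in lymph nodes and 3, 2 and 4 against 5, 5 and 8 in islets. Without Lag3-deficient 1b the lymph node difference was -0.91 for Cep95 and -1.14 for Usp12, and without Lag3-deficient 1a it was 0.53 for Slc39a8, beside 1.64 with all libraries.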

How the data were processed

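RNA of 12 mouse Treg libraries was analysed, and the comparison uses 6 of them, 3 per genotype. The deposited table lists 23361 gene symbols, and its deposited values are a signal in whole numbers: counts rescaled by the authors to column totals that differ by 0.899%. TopHat2, DESeq2 and the build mm10 are named in the submitters' processing notes, with no version or role. Strand, kit and filters are not stated. A second deposited table of 10317 genes holds a normalized signal and served as an alternative. Limma was planned and used, because a count model needs raw counts.

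Values were scaled to CPM by trimmed means of log ratios (TMM, own calculation, trimming 30% of ratios and 5% of levels), and 1 CPM is about 15.3 rescaled counts. Genes that reached 10 rescaled counts in 3 or more libraries, 10868 of the 21708 above 0, were tested with limma 3.58.1 (R 4.3.3) with a mean-variance trend on log2(CPM + 1). The pseudocount of 1 understates differences of weakly expressed genes. A single model held the 4 groups of 12 libraries, with 8 residual degrees of freedom (19.4 after moderation), no covariate and two-sided tests. Benjamini-Hochberg adjustment ran over all tested genes, with a threshold of 0.05. The code was tested on simulated data.

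Genes named were Lag3, a fixed set of core Treg and marker genes, the 10 smallest p in each direction among non-overlapping genes with a mean log2 level of at least 5, up to 4 members per list by p, and others marked as picked by their values. Some of the core genes are not reported here. The members and the 27 lists were chosen with earlier results of these data known. Positions are from the GENCODE annotation of GRCm38. Alternatives varied the pseudocount, scaling, filter, weights, moderation, input table and libraries.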

Additional observations from a re-analysis of the deposited data

How the results depend on the processing

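The count of genes at an adjusted p under 0.05 was 0 under each of the 19 alternatives of the lymph node comparison and each of the 24 of the difference between tissues, beside 296 and 437 at an unadjusted p under 0.05 in the fits as reported. The unadjusted lymph node count ran from 209 with a filter of 50 rescaled counts in 6 libraries to 508 with no filter, and was 502 without Wt library 1a. Of those, genes higher in Lag3-deficient libraries numbered 99 (without Wt 1b) to 340 (without Wt 1a), and lower ones 65 (with the 1b columns left out) to 266 (no filter). The median log2 difference over all tested genes stayed between -0.07 and 0.09. Where 1 arm was left with 2 libraries, the spread was shared with the other groups. No paired analysis was possible because the column headers repeat the number 1 within each group and so carry no replicate number that matches the samples' labels.

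Of the 106 genes followed, 19 changed sign under some alternative, none of them with an adjusted call. With deposited totals only, the log2 difference was 0.0704 for Il2ra, 0.0700 for Icos and 0.014 for Top2a. With voom weights it was 0.0095 for Icos, and with library quality weights 0.16 for Icos, -0.012 for Mki67, -0.19 for Cish and -0.021 for Cd69. With the 1b columns left out it was 0.47 for Icos, 0.36 for Il7r, -0.0086 for Mcm6, -0.22 for Cish and -0.26 for Cd69. From the second table it was 0.0900 for Il2ra, 0.13 for Icos and -0.42 for H2-Ab1, and in a fit of the 6 lymph node libraries alone 0.00596 for Il2ra and 0.0053 for Icos. Leaving out each lymph node library in turn gave ranges that crossed 0: Foxp3 from -0.41 to 0.0785, Il2ra from -0.41 to 0.38, Ikzf4 from -0.86 to 0.21, Icos from -0.29 to 0.23, Il10 from -1.54 to 0.0354, Ccr7 from -0.10 to 0.34, Lef1 from -0.59 to 0.0803, Il7r from -2.30 to 0.22, Klf2 from -0.33 to 0.35, Mki67 from -0.40 to 0.78, Top2a from -0.58 to 0.35, Mcm6 from -0.00517 to 0.53, Cish from -0.40 to 0.85, Bcl2 from -0.17 to 0.38, Nr4a1 from -0.18 to 0.60, Cd69 from -0.44 to 0.32, H2-Aa from -0.0310 to 1.73, H2-Ab1 from -0.18 to 1.45 and Lyz2 from -1.35 to 1.74. The cause of these sign changes was not tested. The 4 lists whose medians the report follows over the alternatives, Treg identity, naive, CD8 T and NK cell and B cell, kept their sign, and so did MHC class I, vacuolar ATPase and iron-sulfur cluster. The other 20 lists with a median did not under every alternative. Depth per library is unknown, and 3 libraries per genotype limit what could be detected.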
